A study of Mus musculus with 45 samples.

Results

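Tuft cells are a rare chemosensory cell type of the intestinal epithelium, and they carry the enzymes that turn arachidonic acid into prostaglandins and cysteinyl leukotrienes. The 10 genes of this synthesis route described here were Pla2g4a, Ptgs1, Ptgs2, Hpgds, Ptges, Hpgd, Alox5, Alox5ap, Ltc4s and Lta4h. They were taken by name from the 47729 genes of the deposited tables, and all 10 were among the 14020 genes with more than 5 reads in at least 6 libraries. The data were 45 libraries of bulk RNA-seq, each from tuft cells (sorted as live EpCAM+ Siglec-F+ cells) of the small intestine of 1 mouse. The mice were male C57BL/6J, 5 weeks old at arrival and housed at 30 °C. They received either a low-fat reference diet (RFD, 10% of energy from fat) or a high fat diet (HFD, 60% of energy from fat). The titles place 11 RFD and 11 HFD libraries in a set called STF, and 11 RFD and 12 HFD libraries in a set called LTF. The study describes feeding for 9 and 22 weeks, the labels give 9 weeks for all 45 libraries, and the LTF set is taken here as the longer feeding. Feeding time and set of libraries cannot be told apart.

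In the pathway, cytosolic phospholipase A2 (Pla2g4a) frees arachidonic acid from membrane lipids. Cyclooxygenases (Ptgs1, constitutive, and Ptgs2, inducible) convert it to prostaglandin H2, from which terminal synthases make prostaglandin D2 (Hpgds) or prostaglandin E2 (Ptges), and Hpgd inactivates prostaglandins by oxidation. In the other branch 5-lipoxygenase (Alox5), which receives its substrate from the membrane protein FLAP (Alox5ap), makes leukotriene A4. Ltc4s conjugates leukotriene A4 with glutathione to leukotriene C4, and Lta4h hydrolyses it to leukotriene B4. Cysteinyl leukotrienes and prostaglandin D2 from tuft cells are known as signals to immune and epithelial cells during helminth infection.

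The libraries held from 189340 to 4690213 reads on genes, and 2 libraries, both of the STF set, had under 500000. The level of tuft cell transcripts differed between libraries. The tuft marker level, here the mean log2(CPM + 1) of 18 tuft cell markers of which none is one of the 10 genes, had a lowest value of 6.28, a median of 8.66 and a highest value of 9.17 in STF RFD libraries, against 4.10, 7.5 and 9.26 in STF HFD libraries. In the LTF set the values were 6.98, 9.06 and 9.53 on RFD and 5.56, 8.70 and 9.48 on HFD. CPM are read counts scaled to a common library size, here after TMM normalization within each set. All 18 markers were detected, and none of them passed the test between diets in either set. In the STF set all of them but Gnat3 (log2 fold change 0.01) had lower values on HFD, down to -1.19 (Pou2f3). In the LTF set their log2 fold changes ran from -0.72 (Sh2d6) to 0.31 (Gng13). The summed level of 5 Paneth cell markers ran from 42.0 to 57462 CPM in STF RFD and from 61.5 to 319326 CPM in STF HFD libraries, and 3 of the latter were over 100000 CPM. Of the mast cell markers, Cpa3, Mcpt1, Mcpt2, Fcer1a and Ms4a2 had at most 8 reads in any library, while Kit was read in all 45. The eosinophil markers Epx and Prg2 had at most 2 and 18 reads. The summed macrophage markers reached 2390 CPM in 1 library, from an LTF HFD mouse, and at most 705 CPM in the others. In bulk RNA, fewer cells of a type and less RNA per cell cannot be told apart.

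All 10 genes are protein coding in GENCODE M21 (GRCm38). Pla2g4a and Ptgs2 are neighbours on chromosome 1, at chr1:149829618-149961290 (minus strand) and chr1:150100031-150108227 (plus strand). Ptges lies at chr2:30889471-30929863 (minus) and Ptgs1 at chr2:36230426-36252272 (plus). Hpgds and Alox5 are both on chromosome 6, at chr6:65117293-65144908 and chr6:116410077-116461178 (both minus). Alox5ap is at chr5:149264767-149288153 (plus), Hpgd at chr8:56294585-56321043 (plus), Lta4h at chr10:93453411-93484875 (plus) and Ltc4s at chr11:50236461-50238616 (minus).

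Since several of these genes moved together across libraries, their promoter sequences are shown. RefSeq windows of the 250 bases before the gene start (GRCm38.p6) were at hand for 9 of the 10 genes, Alox5ap being the other. The windows of Ptgs1 and Alox5, whose levels followed the tuft markers, and of Lta4h, whose level did not, are printed 5′ to 3′ on the gene's strand. Capitals mark AGGAAGT, the kind of purine-rich core that ETS family factors bind, on either strand.
Ptgs1, chr2:36230176-36230425, plus strand: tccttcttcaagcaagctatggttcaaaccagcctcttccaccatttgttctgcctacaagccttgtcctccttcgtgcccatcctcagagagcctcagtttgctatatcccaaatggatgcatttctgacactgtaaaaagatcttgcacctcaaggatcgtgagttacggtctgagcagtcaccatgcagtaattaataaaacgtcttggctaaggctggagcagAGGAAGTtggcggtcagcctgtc
Alox5, chr6:116461179-116461428, minus strand: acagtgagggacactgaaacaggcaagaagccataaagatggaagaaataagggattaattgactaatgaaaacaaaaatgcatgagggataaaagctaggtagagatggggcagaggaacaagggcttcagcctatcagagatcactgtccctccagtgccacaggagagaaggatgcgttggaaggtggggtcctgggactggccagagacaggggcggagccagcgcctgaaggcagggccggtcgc
Lta4h, chr10:93453146-93453395, plus strand: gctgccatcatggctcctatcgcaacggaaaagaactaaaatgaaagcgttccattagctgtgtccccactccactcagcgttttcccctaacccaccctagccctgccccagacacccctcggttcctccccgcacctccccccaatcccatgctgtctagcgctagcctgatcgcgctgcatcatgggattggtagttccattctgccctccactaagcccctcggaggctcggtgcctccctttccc

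The Ptgs1 window holds AGGAAGT, with its first base 23 bases before the start, and the windows of Alox5 and Lta4h do not. The motif was also found in Hpgds, Ltc4s and the second of the 2 windows of Pla2g4a, so in 4 of the 10 windows of these 9 genes, against 7.69% of all 32851 windows of the same length. The octamer ATGCAAAT, the sequence bound by POU factors such as the tuft cell regulator Pou2f3, was found in Hpgds alone among the members, and in 1.60% of all windows. Both motifs were searched on both strands, do not overlap each other in these windows, and were chosen after the sequences had been read. The shares beside all windows are therefore not a test of enrichment. The stretches of 30 bases around them in Hpgds and Ltc4s follow, with the motif in capitals.
Hpgds octamer, chr6:65144886-65144915, minus strand: ctttactctttATGCAAATacgttggacta
Hpgds AGGAAGT, chr6:65144760-65144789, minus strand: cttttaggtggAGGAAGTggcctctggctg
Ltc4s AGGAAGT, chr11:50238631-50238660, minus strand: gaacaactggaAGGAAGTggtcaagctgtc
The starts are those of RefSeq. The gene models of GENCODE M21 begin further upstream for Hpgds and Ltc4s and cover 178 and 84 bases of their windows. The second Pla2g4a window and the Ptges window lie wholly inside their gene models (250 of 250 bases). The Lta4h window had 11 CG dinucleotides, and those of Ptgs1, Alox5, Hpgds and Ltc4s had 3 to 5, beside a median of 6 over all windows. The windows of Ptgs2, Hpgd and Ptges had 13, 9 and 8, and the 2 of Pla2g4a had 3 and 1. A match to a motif describes the sequence and is not a binding site.

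The leukotriene C4 branch was the most abundant of the pathway. Levels between genes are compared in TPM, which correct for transcript length. In STF RFD libraries Alox5ap had a median of 1145 TPM (89.2 to 1344), followed by Ltc4s with 559 TPM (80.9 to 895), Alox5 with 343 TPM (34.8 to 494) and Ptgs1 with 217 TPM (24.1 to 317). Each of these 4 genes was above the next, and Ptgs1 above Hpgds, in 11 of 11 of those libraries. Below them Hpgds (73.6 TPM), Hpgd (54.3 TPM) and Lta4h (51.8 TPM) were not separated, Hpgds being above Hpgd in 6 of 11 libraries and Hpgd above Lta4h in 3 of 11. Pla2g4a had 32.1 TPM. The same 4 genes led by median, in the same order, in the other groups, with less clear ranks. In LTF HFD libraries Alox5ap (797 TPM) and Ltc4s (776 TPM) were nearly level, and Alox5ap was the higher one in 9 of 12. In STF HFD libraries Ptgs1 (118 TPM) was above Lta4h (75.4 TPM) in only 4 of 11.

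Ptgs2 and Ptges were close to the limit of detection. Ptgs2 had at most 62 reads in a library and none in 10 of 45, with medians of 0.31 to 2.38 TPM in the 4 groups. Ptges, the inducible prostaglandin E2 synthase, had at most 21 reads, none in 20 libraries, and medians of 0 to 0.285 TPM. Among the prostaglandin genes of the 10 members, the highest medians were thus those of Ptgs1, Hpgds and the inactivating enzyme Hpgd.

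**Figure D1:**
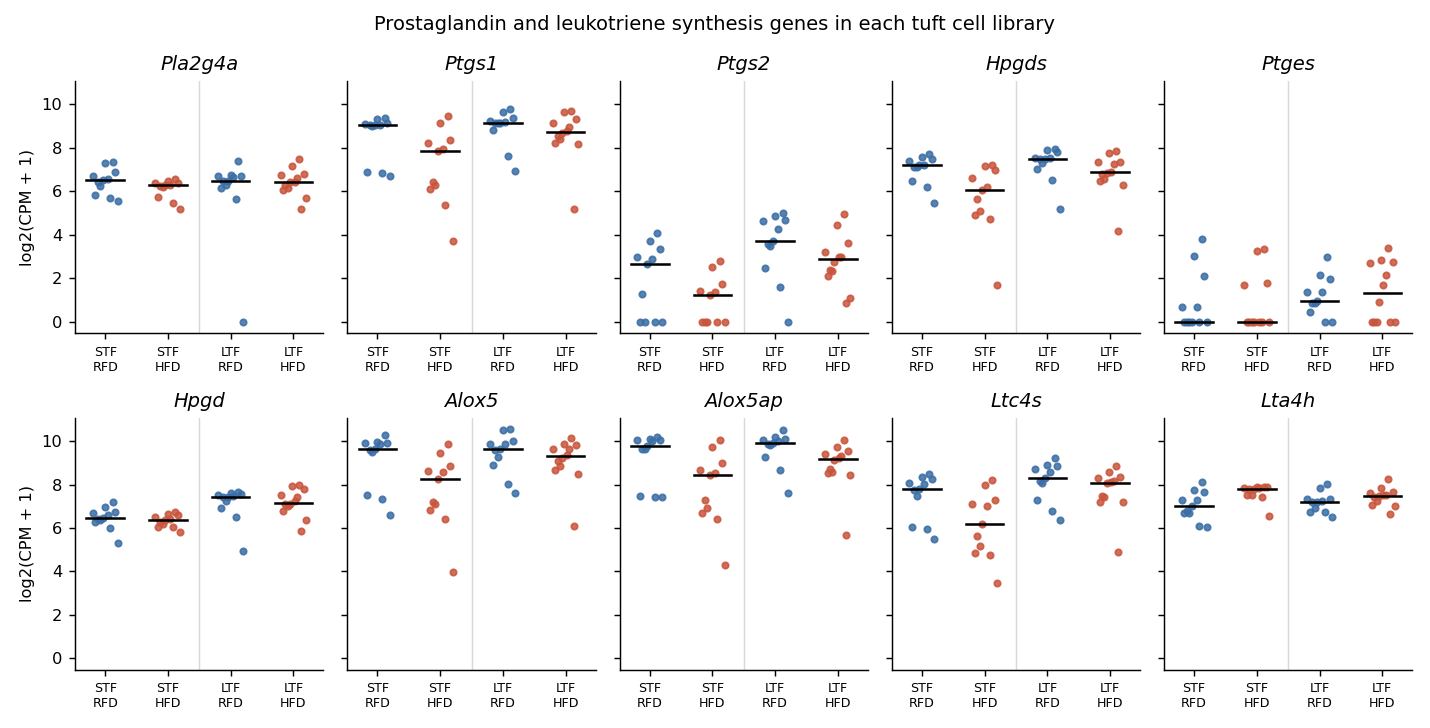
Each panel plots 1 gene, with log2(CPM + 1) on the y axis, 1 point per library (blue RFD, red HFD) and the group median as a bar, for the STF and LTF sets. Ptgs1, Hpgds, Alox5, Alox5ap and Ltc4s spread widely within groups, Lta4h less, and Ptgs2 and Ptges have the lowest levels.

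On HFD in the STF set the genes of prostaglandin D2 and leukotriene C4 synthesis had lower mean levels, but the libraries of each diet spread widely and the diets overlapped. Alox5 had a lowest value of 95.5, a median of 806 and a highest value of 1235 CPM on RFD, and 14.5, 302 and 946 CPM on HFD. The diets overlapped, with 10 of 11 HFD libraries below the RFD median and 2 of 11 below every RFD library. The mean was 712 ± 389 CPM for RFD (SD, n = 11) and 335 ± 286 CPM for HFD (SD, n = 11). The log2 fold change was -1.09 with SE 0.51 (unadjusted p = 0.0425, adjusted p = 0.262 in the quasi-likelihood test of edgeR, Benjamini-Hochberg over all 14020 genes). Alox5ap ranged from 172 over 864 to 1164 CPM on RFD and from 18.9 over 345 to 1051 CPM on HFD (lowest, median, highest). Its log2 fold change was -1.08 with SE 0.51 (adjusted p = 0.268, same edgeR test), and 5 of 11 HFD libraries were below all RFD libraries. Ltc4s, the last enzyme of the branch, had medians of 219.9 CPM on RFD (44.6 to 362) and 71.2 CPM on HFD (10.0 to 297), with a log2 fold change of -0.96 with SE 0.47 (adjusted p = 0.284).

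The prostaglandin D2 genes had similar differences. Hpgds had a lowest value of 43.3, a median of 146 and a highest value of 206 CPM on RFD, and 2.23, 65.6 and 147 CPM on HFD. The highest HFD library was about level with the RFD median, and 10 of 11 HFD libraries were below it. The log2 fold change of Hpgds was -0.95 (SE 0.39, unadjusted p = 0.0208, adjusted p = 0.191, edgeR's quasi-likelihood test), the smallest p of the 10 genes. Ptgs1 had medians of 526 CPM on RFD (102 to 672) and 228 CPM on HFD (12.2 to 705), and a log2 fold change of -0.87 with SE 0.51 (adjusted p = 0.384). Here 1 HFD library was above every RFD library and 5 were below all of them. For Pla2g4a, the phospholipase at the head of the pathway, the medians were 89.5 and 76.8 CPM and the log2 fold change was -0.43 with SE 0.22 (adjusted p = 0.319).

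Lta4h had a difference of the opposite sign in the same libraries. It had a lowest value of 64.8, a median of 126 and a highest value of 280 CPM on RFD and 92.8, 220 and 237 CPM on HFD, and 10 of 11 HFD libraries were above the RFD median. No HFD library was above every RFD library. The log2 fold change was 0.50 (SE 0.23, unadjusted p = 0.0369, adjusted p = 0.249, edgeR's quasi-likelihood test). Hpgd, with medians of 88.2 and 81.8 CPM, had a log2 fold change of -0.18 (SE 0.19). Ptgs2 and Ptges had log2 fold changes of -1.59 (SE 0.95) and 0.46 (SE 1.23), on at most 25 and 21 reads.

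In the edgeR test 0 of the 10 genes passed an adjusted p of 0.1 in the STF set, where 3.32% of all 14020 genes did. At an unadjusted p under 0.05 there were 4 of 10, beside 18% of all genes. Alox5, Alox5ap and Hpgds had lower values on HFD (8.27% of all genes in that direction) and Lta4h a higher one (9.73%). DESeq2 called 2 of the 10, Alox5 (adjusted p = 0.0988) and Hpgds (adjusted p = 0.0812), both lower, and 10.9% of all genes. Without a filter on low counts Hpgds alone was called in edgeR (adjusted p = 0.0394), with 5.22% of all genes. A rank test after SAM-seq called Lta4h alone, as higher (adjusted p = 0.0919), with 10.8% of all genes. The median log2 fold change over the 10 genes was -0.91, and that over all genes was -0.05. The mouse numbers in the titles fall into 3 series (1 to 8, the multiples of 10, and 21 to 64), which may be batches. The 2 remaining libraries, from STF RFD and LTF HFD, are in no series and enter no value within series. In that order the differences between diet means in log2(CPM + 1) were -2.0, -0.51 and -0.69 for Alox5, -2.23, -0.74 and -0.56 for Alox5ap, -1.53, -1.44 and -0.59 for Hpgds, and 0.61, 0.37 and 0.67 for Lta4h. Without the 3 HFD libraries rich in Paneth cell markers, the log2 fold change of Alox5ap was -0.73 (adjusted p = 0.686), and genes called among all 14020 numbered 3 in place of 466.

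In the LTF set the differences of the leukotriene C4 genes were smaller and had the same sign. Alox5ap had the smallest p. It had a lowest value of 196, a median of 968 and a highest value of 1476 CPM on RFD and 50.9, 574 and 1066 CPM on HFD, with 11 of 12 HFD libraries below the RFD median and 1 below every RFD library. The means were 898 ± 364 CPM (SD, n = 11) and 556 ± 266 CPM (SD, n = 12), and the log2 fold change was -0.69 (SE 0.31, unadjusted p = 0.0330, adjusted p = 0.450, edgeR's quasi-likelihood test). Within the number series the differences between diet means were -0.87, -0.63 and -0.74.

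The partners of Alox5ap differed less between diets. Alox5 had medians of 783 CPM on RFD (193 to 1495) and 630 CPM on HFD (67.8 to 1147), and a log2 fold change of -0.35 (SE 0.32). For Ltc4s the medians were 315 and 272 CPM and the log2 fold change was -0.37 (SE 0.32), and for Hpgds they were 178 and 117 CPM with -0.38 (SE 0.29). Ptgs1 had a log2 fold change of -0.24 (SE 0.32), Pla2g4a of 0.09 (SE 0.36), Hpgd of 0.02 (SE 0.25) and Lta4h of 0.24 (SE 0.19). Ptgs2 had medians of 12.1 CPM on RFD and 6.29 CPM on HFD and a log2 fold change of -0.77 (SE 0.53), and Ptges had 0.67 (SE 0.90).

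Again 0 of 10 genes passed an adjusted p of 0.1, where 0.792% of all genes did, and only Alox5ap had an unadjusted p under 0.05, beside 10.3% of all genes and 5.61% that were lower. The median log2 fold change was -0.30 over the 10 genes and -0.03 over all genes. In the test of whether the diet difference itself differed between the sets, 0 of the 14020 genes passed in edgeR, 451 (3.22%) had an unadjusted p under 0.05, and DESeq2 called 1 gene. The smallest unadjusted p among the 10 was 0.188 (Pla2g4a), so that the diet differences in the 2 sets could not be told apart for any of them.

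**Figure D2:**
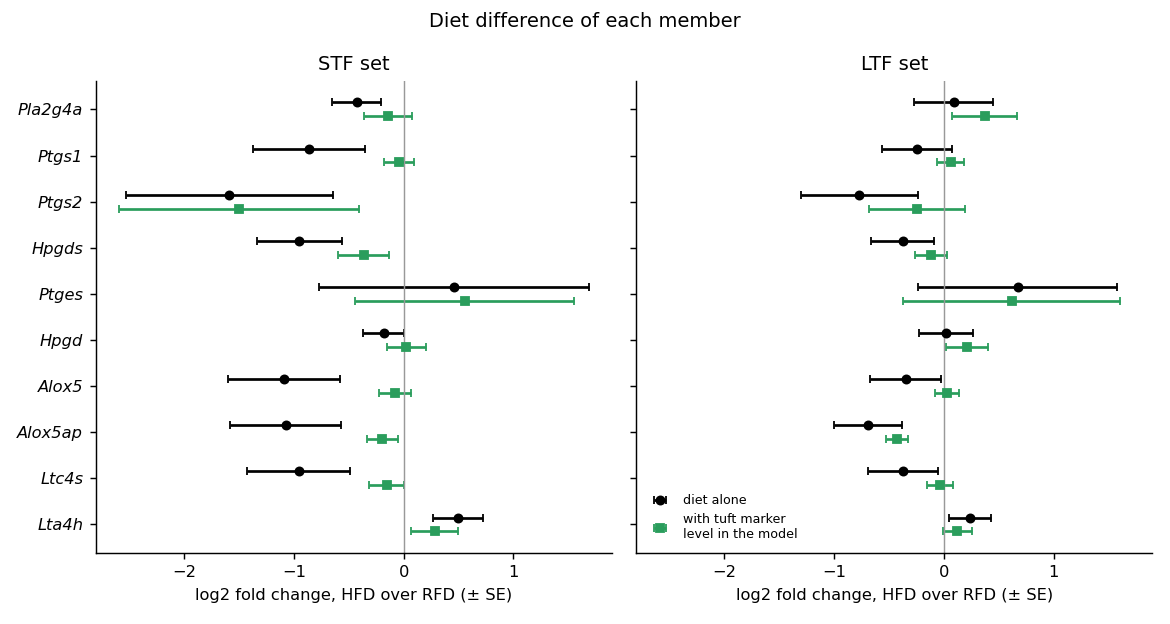
Log2 fold change of HFD over RFD (x axis) with its standard error for each gene, from edgeR with diet alone (black circles) and with the tuft marker level in the model (green squares), for the STF (left) and LTF (right) sets. With the tuft marker level in the model, the values of Ptgs1, Alox5 and Ltc4s lie close to 0 in both sets, and Alox5ap in the LTF set is at -0.42.

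The 5 genes Ptgs1, Alox5, Alox5ap, Ltc4s and Hpgds followed the tuft marker level from library to library. Ptgs1 was the closest in the STF set, with Spearman's rho 0.990 and Pearson's r 0.991 over 22 libraries, and in the LTF set, over 23 libraries, Alox5ap was the closest by rank with rho 0.957 and r 0.965. Alox5 had rho 0.965 (STF) and 0.926 (LTF), Alox5ap had 0.960 in the STF set, Ltc4s had 0.951 and 0.923, Ptgs1 had 0.909 in the LTF set, and Hpgds had 0.793 and 0.871. For these 5 genes the permutation p (two-sided, 100000 permutations) was 1e-05, the smallest they can give, in 9 of the 10 tests of rho, and the largest p adjusted over the 20 tests of 10 genes in 2 sets was 1.0e-04. For comparison, rho was at least 0.8 for 5.66% of the other tested genes in the STF set and 3.97% in the LTF set. All points share their library with the marker level, which is measured in the same reads.

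In the library with the lowest marker level (4.10, an STF HFD mouse), Ptgs1 had 11 reads, Alox5 13, Alox5ap 17, Ltc4s 9 and Hpgds 2, while Lta4h had 213 and Hpgd 64. Without the 2 libraries farthest from the median marker level, r stayed between 0.859 (Hpgds) and 0.987 (Alox5) for the 5 genes in the STF set and between 0.823 (Hpgds) and 0.934 (Ltc4s) in the LTF set. The relation was present within each diet, with r from 0.818 to 0.995 in the STF set and from 0.919 to 0.997 in the LTF set, and within each number series of 6 to 8 libraries, with r from 0.846 to 0.995 in STF and from 0.687 to 0.990 in LTF. Among the 5 genes themselves, rho of the 10 pairs had a median of 0.941 (0.773 to 0.988) in the STF set and 0.841 (0.728 to 0.908) in the LTF set.

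The other members related to the tuft markers more loosely. Hpgd had rho 0.728 in the STF set (adjusted permutation p = 0.000277) and 0.492 in the LTF set (adjusted permutation p = 0.0205). Pla2g4a had 0.718 and 0.754 (adjusted permutation p = 0.00040 and 0.00015), although in the STF series of multiples of 10 its r was -0.10. In 1 LTF RFD library it had no read, and that library also had the lowest Hpgd of the LTF set, 29.6 CPM. Ptgs2 passed in the LTF set only, with 0.699 against 0.263 in the STF set, and the difference between the sets was not tested. Ptges had -0.284 and -0.207 and did not pass.

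Lta4h ran the other way over CPM, with rho -0.702 in the STF set and -0.753 in the LTF set (adjusted permutation p = 0.00059 and 0.00011), but on log2(TPM + 1) rho was 0.0288 in the STF set and -0.542 in the LTF set. Lta4h was also higher where goblet and stem cell markers were higher, with rho 0.67 and 0.62 in the STF set and 0.40 and 0.35 in the LTF set. With Paneth cell markers rho was 0.54 (STF) and 0.27 (LTF). With enterocyte markers it was -0.05 and 0.38, and with enteroendocrine markers -0.32 and -0.56. The part of these cell types in the level of Lta4h was not tested. The gene encodes an enzyme found in many cell types.

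**Figure D3:**
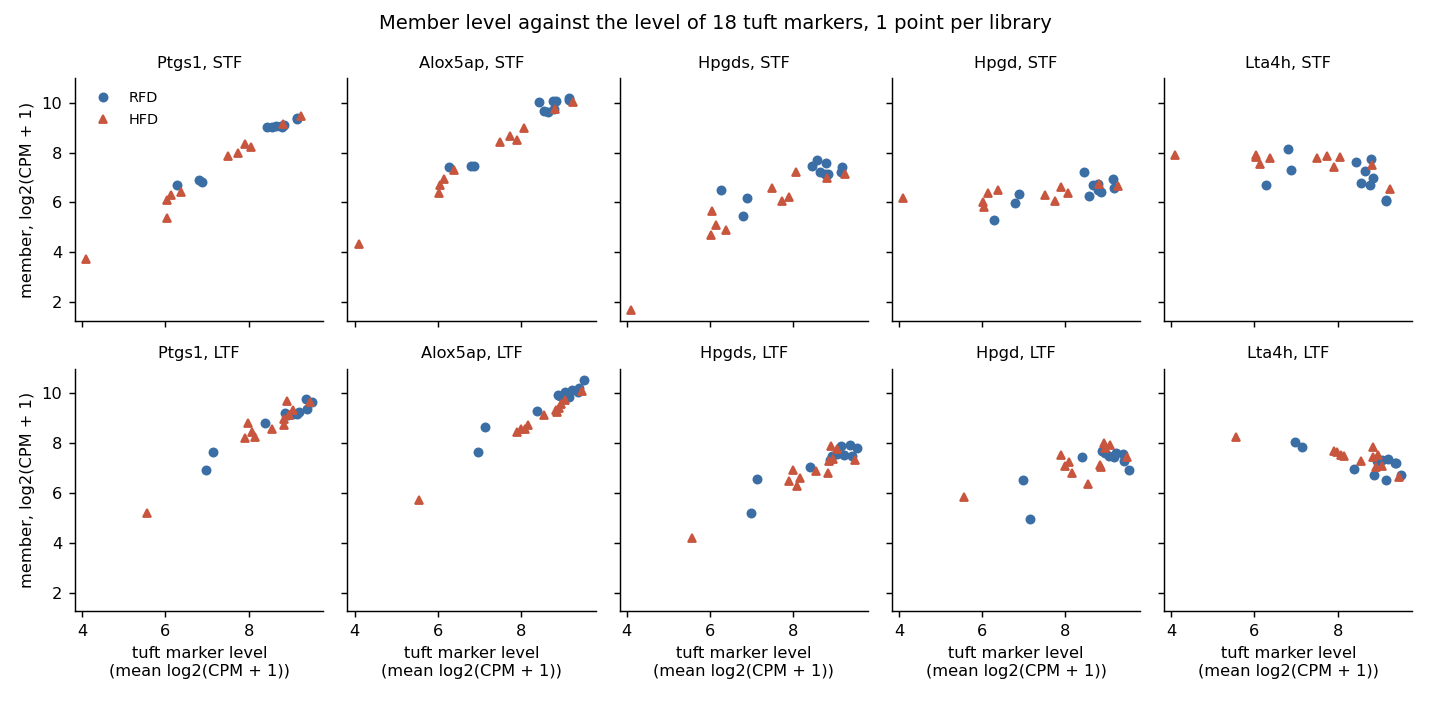
Log2(CPM + 1) of 5 genes (y axis) against the tuft marker level (x axis), 1 point per library, blue circles for RFD and red triangles for HFD, with the STF set above and the LTF set below. Ptgs1, Alox5ap and Hpgds rise along the axis, Hpgd rises less, and Lta4h slopes down on this scale (in the STF set not on log2(TPM + 1), where rho is 0.0288).

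With the tuft marker level as a covariate in edgeR, the diet differences of the genes that followed the markers were closer to 0. In the STF set the log2 fold change was -0.04 (SE 0.14) for Ptgs1, -0.07 (SE 0.15) for Alox5, -0.20 (SE 0.14) for Alox5ap, -0.15 (SE 0.16) for Ltc4s, -0.36 (SE 0.23) for Hpgds and 0.29 (SE 0.21) for Lta4h. Ptgs2 was at -1.50 (SE 1.09). None passed, and 0.0999% of all genes did. The slopes, in log2 units per unit of marker level, were 1.12 ± 0.06 (SE) for Ptgs1, 1.14 ± 0.06 for Alox5, 1.12 ± 0.06 for Alox5ap, 1.02 ± 0.06 for Ltc4s and 0.77 ± 0.10 for Hpgds, against 0.17 ± 0.07 for Hpgd and -0.19 ± 0.08 for Lta4h. A slope of 1 means that the gene changes in proportion to the markers.

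Alox5ap in the LTF set was the 1 member that passed. Given the marker level, it fell by 0.42 on the log2 scale on HFD (SE 0.10, unadjusted p = 0.000178, adjusted p = 0.0315, edgeR with the tuft marker level as a covariate). In that model 1.26% of all genes passed. Without the covariate, the log2 fold changes of the 18 markers in the LTF set ran from -0.72 (Sh2d6) to 0.31 (Gng13). The -0.69 of Alox5ap lay within this range, and whether Alox5ap differed from single markers was not tested. Relative to the markers, as log2(CPM + 1) minus the tuft marker level, Alox5ap had a lowest value of 0.64, a median of 0.90 and a highest value of 1.51 on RFD and 0.14, 0.53 and 0.65 on HFD. All 12 HFD libraries were below the RFD median, and the groups overlapped only between 0.64 and 0.65. In the STF set the medians of this value were 1.03 on RFD and 0.79 on HFD for Alox5ap, and 1.00 and 0.74 for Alox5. There too 11 of 11 HFD libraries were below the RFD median, for both genes, while neither passed in the model. Subtracting the marker level takes a slope of 1, whereas the STF slopes were 1.12 for Alox5ap and 1.14 for Alox5. The mean STF marker level was 8.22 on RFD and 7.09 on HFD, and its part in these counts was not tested. In the same model the LTF differences were 0.06 (SE 0.12) for Ptgs1, 0.03 (SE 0.11) for Alox5, -0.04 (SE 0.12) for Ltc4s and -0.12 (SE 0.15) for Hpgds. Others lay farther from 0 than without the covariate, with 0.37 (SE 0.30) for Pla2g4a and 0.21 (SE 0.19) for Hpgd, and Ptges was at 0.62 (SE 0.99).

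The Alox5ap difference was present under further settings, which were added after the data had been seen. With Dclk1 in place of the marker list the log2 value was -0.67 (adjusted p = 0.00124, edgeR), close to the -0.69 without a covariate. Dclk1 itself had a log2 fold change of 0.0006 between diets in the LTF set. With the number series as a further term beside the marker level the value was -0.42 (adjusted p = 0.0519, edgeR). Without the library rich in macrophage markers it was -0.42 (adjusted p = 0.0497, edgeR). With each of the 23 libraries left out in turn it ranged from -0.45 to -0.31, with adjusted p from 0.0236 to 0.0800. DESeq2 with the covariate gave -0.44 (adjusted p = 0.0121). In limma on log2(TPM + 1) with the covariate the value was -0.45 but did not pass (adjusted p = 0.295). The TPM of Alox5ap over that of Ltc4s, a ratio within each library chosen after the values were seen, had a median of 1.36 on LTF RFD (1.06 to 2.10) and 1.05 on LTF HFD (0.891 to 1.34), with 12 of 12 HFD libraries below the RFD median and 7 below every RFD library. In the STF set the medians of this ratio were 1.80 and 1.61, and 8 of 11 HFD libraries were below the RFD median. The ratio of Alox5ap to Alox5 in TPM separated the LTF diets less. Of the LTF HFD libraries, 10 of 12 were below its RFD median and 1 was below every RFD library. Of the STF HFD libraries, 7 of 11 were below its RFD median. Both ratios use the same Alox5ap values. The difference between the sets in the Alox5ap diet effect, given the marker level, was -0.17 (unadjusted p = 0.268, edgeR's quasi-likelihood test).

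**Figure D4:**
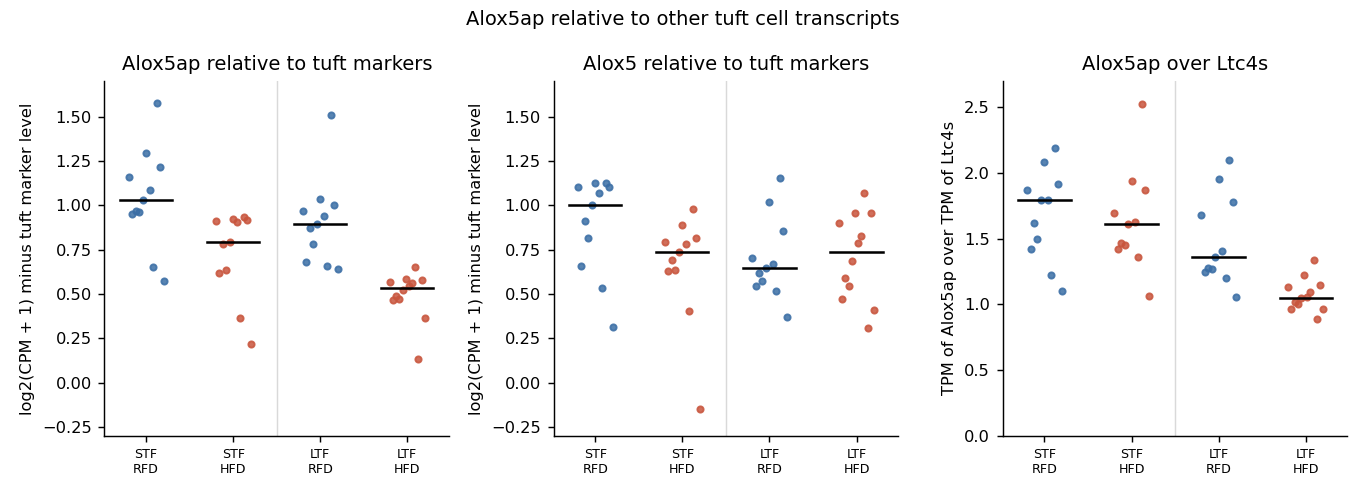
Alox5ap and Alox5 as log2(CPM + 1) minus the tuft marker level (left and middle), and the ratio of Alox5ap to Ltc4s in TPM (right), 1 point per library with group medians as bars. In the LTF set all 12 HFD libraries lie below the RFD median of 0.90 for Alox5ap, and 5 of 12 lie below that of 0.64 for Alox5. In the STF set 11 of 11 lie below the RFD median for both genes. The subtraction takes a slope of 1, and the fitted STF slopes were 1.12 for Alox5ap and 1.14 for Alox5.

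Between the sets, averaged over diets, 2 of the 10 genes passed, both higher in the LTF set, where 11.3% of all genes passed in either direction and 6.25% were higher. Hpgd had a median of 88.2 CPM on RFD and 81.8 CPM on HFD in the STF set and 172 and 142 CPM in the LTF set, a log2 fold change of 0.61 with SE 0.16 (adjusted p = 0.0103, edgeR's quasi-likelihood test). The highest STF library, at 147 CPM, overlapped with the LTF range of 29.6 to 250.4 CPM. These CPM were normalized within each set and are not on a common scale between sets. The fold change came from a normalization over all 45 libraries. Ptgs2 had a log2 fold change of 1.67 with SE 0.51 (adjusted p = 0.0316) on few reads, and with the tuft marker level as a covariate it did not pass (1.11, adjusted p = 0.261). Ltc4s had 0.67 (SE 0.30, adjusted p = 0.178). Alox5ap had 0.19 (SE 0.31), which with the covariate became -0.24 (adjusted p = 0.0391). With a replicate block by mouse number, over the 16 numbers found in both sets, 0 of the 10 genes passed, with 0.44 (adjusted p = 0.481) for Hpgd and 1.45 (adjusted p = 0.662) for Ptgs2 in edgeR. Equal numbers are not the same mouse, and only 2 of the 16 pairs correlated above 0.1 in their deviations from the group means. The block therefore models no pairing of animals and uses fewer libraries.

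By Spearman's rho of log2(CPM + 1), averaged over the 22 STF and 23 LTF libraries, the tested gene most like Alox5ap was the tuft marker Sh2d6 (0.981), followed by Cd300lf (0.977), a receptor known from tuft cells. Ptgs1 was most like Tmem176b (0.957) and Rac2 (0.945), a small GTPase of blood cells. Alox5 was most like the phosphatase gene Ptpn6 (0.954) and Suox (0.953), Ltc4s like the copper chaperone gene Atox1 (0.964) and Selenom (0.959), and Hpgds like Cd47 (0.906) and Samd9l (0.904). For Pla2g4a the nearest were R3hdm4 (0.813) and Ndrg1 (0.798), for Hpgd Asah1 (0.721) and Ypel5 (0.715), for Ptgs2 Mapre2 (0.711) and Rtp4 (0.705), and for Ptges Ndnf (0.768) and Pnma2 (0.738). Lta4h was most like Atp5b (0.883) and Mdh2 (0.880), a subunit of ATP synthase and an enzyme of the citric acid cycle in mitochondria. These values describe shared variation between libraries.

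Around these 10 genes, 59 other genes of eicosanoid metabolism were listed, of which 39 passed the filter on low counts. In the STF set 4 of the 39 passed, 3 higher and 1 lower on HFD, and in the LTF set 3 passed, all higher, beside 3.32% and 0.792% of all genes. The median log2 fold change of the 39 was 0.07 and 0.21, beside -0.05 and -0.03 over all genes. By class, the 39 were 11 of 13 phospholipases, 1 of 6 other lipoxygenases, 10 of 11 other synthases, 5 of 7 genes of inactivation and conversion, 3 of 3 transporters, 4 of 14 receptors and 5 of 5 genes of arachidonic acid supply.

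The microsomal glutathione transferases Mgst1 and Mgst2, relatives of Ltc4s, were higher on HFD, Mgst1 in both sets and Mgst2 in the LTF set. Mgst1 had a lowest value of 29.8, a median of 64.6 and a highest value of 263 CPM on LTF RFD and 101, 280 and 559 CPM on LTF HFD, where 12 of 12 libraries were above the RFD median. Its log2 fold change was 1.64 with SE 0.34 (adjusted p = 0.0215, edgeR's quasi-likelihood test) in the LTF set and 1.60 (SE 0.41, adjusted p = 0.0662) in the STF set. Mgst2, which can also make leukotriene C4, had a median of 75.4 CPM on LTF RFD and 125 CPM on LTF HFD, with 11 of 12 HFD libraries above every RFD library, and a log2 fold change of 0.83 with SE 0.19 (adjusted p = 0.0406). In the STF set the value for Mgst2 was 0.73 (SE 0.26, adjusted p = 0.135). Their relative Mgst3 had lower mean levels on HFD in both sets and did not pass in either. Its log2 fold change was -0.68 in the STF set (SE 0.32, adjusted p = 0.266, edgeR's quasi-likelihood test). In the LTF set it was -0.23 (SE 0.23, adjusted p = 0.792). On STF RFD Mgst3 had a median of 1248 TPM, against 128 TPM for Mgst1 and 79.3 TPM for Mgst2.

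Among the remaining listed genes, the aldo-keto reductase gene Akr1b8 was higher on HFD in the LTF set, with a median of 1.67 CPM on RFD and 9.42 CPM on HFD and a log2 fold change of 2.68 with SE 0.62 (adjusted p = 0.0425, edgeR's quasi-likelihood test). It had at most 62 reads, and its STF value was 2.42 (SE 0.83, adjusted p = 0.128). Ptgr1, which inactivates leukotriene B4 and prostaglandin metabolites, was higher in the STF set (1.06, SE 0.31, adjusted p = 0.0807), and had -0.05 (SE 0.30) in the LTF set. The secreted phospholipase gene Pla2g2f was higher in the STF set (3.61, SE 0.96, adjusted p = 0.0662), from a median of 0 to 6.20 CPM, and had 0.20 (SE 0.79) in the LTF set. The difference between the sets had an unadjusted p of 0.0093 for Pla2g2f and did not pass adjustment.

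Slco2a1, the prostaglandin uptake transporter, was the gene that was lower. It had a lowest value of 8.84, a median of 32.4 and a highest value of 56.8 CPM on STF RFD and 3.34, 13.8 and 22.6 CPM on STF HFD, with 11 of 11 HFD libraries below the RFD median and a log2 fold change of -1.36 with SE 0.31 (adjusted p = 0.0400, edgeR's quasi-likelihood test). In the LTF set it had -0.85 (SE 0.31, adjusted p = 0.279), with 11 of 12 HFD libraries below the RFD median. Without the 3 libraries rich in Paneth cell markers none of the 4 STF genes passed, with adjusted p of 0.266 for Slco2a1, 0.394 for Mgst1, 0.560 for Ptgr1 and 0.583 for Pla2g2f. With the tuft marker level as a covariate they did not pass either (adjusted p of 0.403, 0.459, 0.730 and 0.328), whereas in the LTF set Mgst1 (7.3e-04), Mgst2 (0.0123) and Akr1b8 (0.0150) did by adjusted p in that model.

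**Figure D5:**
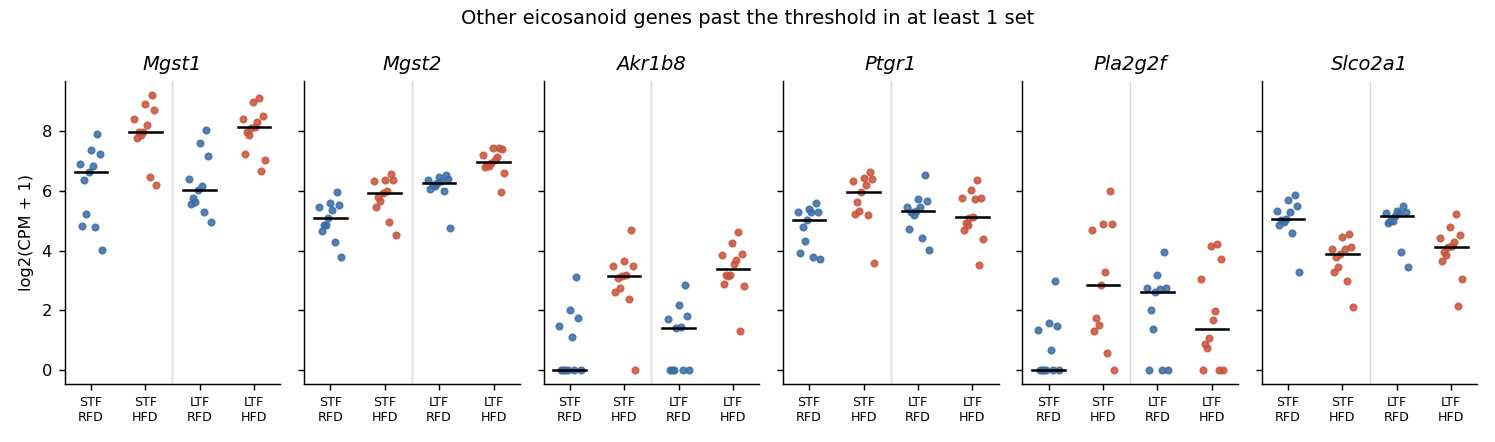
Log2(CPM + 1) of the 6 other eicosanoid genes that passed in at least 1 set, 1 point per library (blue RFD, red HFD) with group medians as bars. For Mgst1 12 of 12 LTF HFD libraries lie above the RFD median of their set, and for Slco2a1 11 of 11 STF HFD libraries lie below it.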

How the data were processed

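The data were bulk RNA-seq (Smart-seq2, paired-end) of sorted tuft cells in 45 libraries. Per the submitters' processing notes and the paper's methods, the authors trimmed reads with cutadapt 1.15, aligned them with STAR 2.6.0 and quantified genes with RSEM on GRCm38. The deposited expected counts (estimated read counts per gene, of which 8.79% of values above 0 were not whole) were rounded. The deposited TPM values, made by the authors with RSEM, were used as they were to compare genes. FPKM tables were not used, nor were 24 columns that match no sample. RSEM divides reads shared between near-identical genes. The authors also weighted counts by cell type estimates, which was not done here.

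Symbols came from GENCODE M21 (47224 of 47729 identifiers), and 19 genes of a duplicate symbol were dropped. Of 14020 genes with more than 5 reads in at least 6 libraries, diets were compared in each set with edgeR 4.0.16 (TMM, robust quasi-likelihood test, Benjamini-Hochberg adjustment, threshold 0.1). The biological coefficient of variation was 0.794 in STF and 0.702 in LTF. In a test on simulated data of the STF comparison (13418 genes), 57.1% of genes changed 4-fold and 85.1% of those changed 8-fold were recovered, and 70.8% and 87.6% in the LTF comparison (13705 genes). Of the genes called there, 15 of 151 (STF) and 10 of 163 (LTF) had not been changed. Smaller changes, such as those of the 10 members, were not simulated, nor was variation shared between genes. These rates therefore do not tell how well differences of the members' size would be found. Correlations used 100000 permutations (numpy 2.4.6). The alternatives were DESeq2 1.42.0, limma 3.58.1 on TPM, other filters, covariates and sets of libraries. The genes named were the 10 members, listed eicosanoid genes that passed or had the 3 smallest p in a set, and for each member the 2 tested genes of highest mean rho. Mgst3 was named beside its relatives Mgst1 and Mgst2. The members and lists were chosen with earlier results of these data known. Each library is 1 mouse, 4 to a cage, and cages are not given in the labels. The tests therefore treat mice of the same cage as independent.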

Additional observations from a re-analysis of the deposited data

How the results depend on the processing

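The number of genes called moved with the test, the filter and the libraries kept. In the STF set 466 genes were called, against 1534 with DESeq2, 1509 with the rank test after SAM-seq, 1698 with no filter on low counts, 290 without the 2 libraries under 500000 reads, and 11 and 5 with limma on log2(TPM + 1) and log2(TPM + 0.1). With the tuft marker level held there were 14 (edgeR), 177 (DESeq2), 19 (limma on TPM) and 5 (with number series as well), with the Dclk1 level 21, and without the 3 libraries rich in Paneth cell markers 3. Of the 10 members, 2 were called with DESeq2, 1 with no filter and 1 with the rank test, against 0. In the LTF set 111 genes were called, against 351 with DESeq2, 495 with the rank test, 435 with no filter, 47 and 13 with limma on TPM, 185 with number series as a term and 63 in 1 fit over all 45 libraries. With the tuft marker level held there were 177, 501 (DESeq2), 51 (limma on TPM) and 191 (with number series), and with the Dclk1 level 379. In these LTF fits other than limma, and with the tuft marker level held and the library rich in macrophage markers left out, 1 member (Alox5ap) was called, against 0. Alox5ap and Hpgds were lower, and Lta4h higher, on HFD in both sets under each of 15 alternatives. Of the STF calls 60.1% were higher, and 84.4% with the rank test.

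The diet by set test called 0 genes, and 1 with DESeq2. Between LTF and STF 1580 genes were called, 2411 with DESeq2. With the replicate block 170 genes and 0 of the 10 members were called, against 2. The numbers are not those of the same mice, and only 2 of 16 pairs correlated above 0.1 in their deviations from the group means. The LTF against STF difference of Alox5ap was -0.24 with the tuft marker level as a covariate, the opposite sign to 0.19, and rho of Lta4h in the STF set was 0.0288 on log2(TPM + 1) against -0.70. The cause was not tested in either case. HFD and RFD mice share no number within a set, so diets were not paired. No LTF library had under 500000 reads, so that alternative was not run there. Of the 20 member and set correlations 17 passed, and 16 to 17 did under the alternatives. At 0 to 62 reads, Ptgs2 and Ptges were too shallow to compare diets.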
